A study of Mus musculus with 23 samples.

Results

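The cytosolic ribosomal protein genes were followed in libraries labelled as mouse ILC2s (group 2 innate lymphoid cells), from before and after transfer into mice with a stroke. Members were all genes of the deposited table whose symbol is Rps or Rpl followed by a number and at most one of the letters a, x or l, together with Rpsa, Rplp0, Rplp1 and Rplp2. The rule used no measured value. It found 72 genes of 19945 in the table, 30 of the small and 42 of the large ribosomal subunit. Of 81 protein-coding mouse symbols in RefSeq that match the rule, the 9 others (Rpl3, Rpl10, Rpl10l, Rpl27, Rpl29, Rpl32l, Rpl41, Rplp1 and Rps27) were not analysed here. A gene was tested where its normalized count reached 10 in at least 5 of the 23 libraries, which 71 members did; Rpl3l did not, and all the others are accounted for below. No member was without reads in batch 1, whereas 1137 of the 19945 genes were.

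The ILC2s came from male mice of 8 to 10 weeks, transgenic and wild-type, and all 4 groups carry the genotype label B6.Cg-Tg(CAG-GFP)Smoc, a transgene in which the CAG promoter drives GFP. The mice were injected with IL-33 every 2 days over 7 days, and marrow and spleen cells that carried CD25 but none of CD11b, Gr1, CD3ε, CD45R/B220 and Ter119 were separated on magnetic columns. They grew over 14 days with IL-7, IL-33, IL-2 and IL-15, after which a sort kept the CD45+Lin-ST2+KLRG1+CD127+ cells. The cells went into a vein 6 hours after occlusion of the middle cerebral artery (MCAO), a model of stroke. They were taken back from blood on day 1 (n = 6), from blood on day 5 (n = 6) and from brain on day 5 (n = 6). A further 5 libraries of cells from the culture medium served as the baseline. The labels give 12 libraries to batch 1 and 11 to batch 2, with all 4 groups in each. How the cells were sorted on recovery, whether the culture libraries were taken after the last sort and whether replicates were separate animals is not stated. The p-values therefore measure the spread between these libraries, which may be technical.

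A ribosome reads messenger RNA and builds protein; its small subunit decodes the message, and its large subunit joins the amino acids and holds the tunnel through which the new chain leaves. Each ribosome contains one copy of nearly every ribosomal protein, so cells make these proteins in balance, and growing or stimulated lymphocytes make more of them. Their messenger RNAs typically begin with a C followed by a run of pyrimidines, the terminal oligopyrimidine (TOP) tract, through which the kinase mTOR and the protein LARP1 set how strongly the whole family is translated.

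Sequence around the annotated start was available for 55 of the 72 members, from RefSeq on GRCm38.p6. An unbroken run of at least 5 C or T letters that holds the first or the second transcribed base was found for 22 of these 55 genes (40%). It was found for 4158 of all 27025 genes in the same table (15.4%). The letters CTTTCC, searched on both strands of the 300 bases around the start, where they can overlap such a run, were present for 29 members (52.7%) and 7923 genes of the table (29.3%). Annotated starts can lie some bases away from the start used in these cells, and a tract a few bases off the annotated start is not counted. The 15 bases before and the 15 bases from the start are shown for 10 members: those with the largest falls that the table holds (Rpl39, Rpl38, Rps15a, Rps24, Rpl23 and Rpl36a), a pair with small falls in blood (Rps6 and Rps19) and a pair from the stalk (Rplp2 and Rplp0). Capitals mark the run of C and T. Rps24 and Rps19 have further annotated starts that are not shown, none of them in such a run. A gene was counted where any of its starts lay in a run.
Rpl39 (chrX:37085208-37085237, minus strand): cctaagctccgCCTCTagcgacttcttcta
Rpl38 (chr11:114668565-114668594, plus strand): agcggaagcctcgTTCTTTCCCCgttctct
Rps15a (chr7:118116133-118116162, minus strand): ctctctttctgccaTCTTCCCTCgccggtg
Rps24 (chr14:24490663-24490692, plus strand): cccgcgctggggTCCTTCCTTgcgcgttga
Rpl23 (chr11:97782425-97782454, minus strand): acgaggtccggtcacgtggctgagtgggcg
Rpl36a (chrX:134585639-134585668, plus strand): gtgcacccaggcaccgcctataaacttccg
Rps6 (chr4:86857353-86857382, minus strand): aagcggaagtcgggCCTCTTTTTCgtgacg
Rps19 (chr7:24884577-24884606, plus strand): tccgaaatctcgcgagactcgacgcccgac
Rplp2 (chr7:141447636-141447665, plus strand): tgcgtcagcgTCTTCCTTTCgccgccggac
Rplp0 (chr5:115559452-115559481, plus strand): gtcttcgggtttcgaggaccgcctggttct

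Rpl39 and Rpl38, among the largest falls, start in such a run, and so does Rps6, one of the smallest falls in blood, whereas Rpl23 and Rpl36a are among the largest falls and do not. Over the tested members with a sequence other than Rpl39l, the 22 with a run had a median log2 difference of -2.04 between blood on day 1 and culture, and the 31 without had -1.88. Between blood on day 5 and culture the medians were -2.27 and -1.85. Between brain and culture the medians were -2.09 and -2.11. These medians are descriptions, and their difference was not tested.

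Recovered reads ran from 11606756 to 58059558 per library. The labelled cell type was checked by the summed share of marker genes in each library. Of the 12 genes that define ILC2s, 10 were in the table and had reads in every group. Together they made up 0.173% to 0.343% of the normalized total in culture, 0.0319% to 0.221% and 0.201% to 0.276% in blood on days 1 and 5, and 0.00664% to 0.0154% in brain, below every other library. All 8 choroid plexus genes had reads in brain, at 1.45% to 7.79% against at most 0.00174% in culture, where Clic6 and Otx2 were at 0. The 10 microglia genes were at 0.792% to 2.41% against 0.0108% to 0.0295% in culture, where Sall1 was at 0, and the 8 oligodendrocyte genes were at 0.994% to 1.48% against 0.0159% to 0.0443%. In blood the 12 platelet genes were at 0.49% to 5.89% on day 1 and 0.201% to 1.69% on day 5 against 0.0213% to 0.111% in culture. The 4 erythroid genes in the table were at 0.357% to 8.39% and 0.267% to 3.72% against 0.00104% to 0.409% in culture. The 8 natural killer cell genes in the table were at 0.104% to 0.391% and 0.218% to 0.455% in blood on days 1 and 5 against 0.0144% to 0.0288% in culture, where Klra1 was at 0. The 10 B cell genes were at 0.125% to 0.689% and 0.385% to 1.17% in blood on days 1 and 5 against 0.000862% to 0.0245% in culture. The 10 neutrophil genes were at 0.0776% to 0.642% and 0.285% to 3.12% against 0.0045% to 0.0313%. The 11 T cell genes were at 0.437% to 1.22% in culture, above the ILC2-defining genes there. They were at 0.159% to 0.359% and 0.181% to 0.265% in blood on days 1 and 5 and at 0.000744% to 0.00181% in brain. In brain the 8 monocyte and macrophage genes in the table were at 0.311% to 0.882% against 0.0236% to 0.122% in culture. The 8 astrocyte genes were at 0.0889% to 0.242% in brain against 0.00869% to 0.0427% in culture. These shares move with the groups compared below and their part in the ribosomal protein results was not tested. In bulk RNA, fewer cells of a type and less RNA per cell cannot be told apart.

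The culture libraries did not agree among themselves. Across 70 members (all tested ones but Rpl39l), the ratio of the highest to the lowest of culture replicates 1 to 3 had a median of 1.12, and over all 5 culture libraries 3.66. Replicate 4, of batch 2, was the lowest culture library for 44 of the 70 members. The log2 difference of its values from the mean of replicates 1 to 3 had a median of -1.13 and ranged from -2.82 to 1.70. Replicate 5, of the same batch, was the highest for 36 and the lowest for 18, with a median of 0.10 and a range from -3.34 for Rpl8 to 2.45 for Rps27a. Batch 2 thus has only these 2 dissimilar libraries as its baseline, and each comparison with culture is given below within batches too.

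Ribosomal protein transcripts took up a smaller part of the RNA in every library of recovered cells than in any culture library. Their summed share of the normalized total was 4.39, 4.71, 4.65, 2.6 and 5.26% in culture replicates 1 to 5, with a mean of 4.32% ± 1.01 (SD, n = 5). In blood on day 1 it was 1.21, 0.562, 1.21, 1.47, 1.23 and 1.65% (1.22% ± 0.37, SD, n = 6). Replicate 2 there had a normalized total of 4.55e+07 against 1.77e+07 to 2.08e+07 in the other day 1 libraries. The median of its member values, 2358, lay within the range of the others (1919 to 3046), so its low share went with its large total. In blood on day 5 the share was 0.925, 0.907, 0.936, 1.42, 1.62 and 1.96% (1.29% ± 0.441, SD, n = 6). In brain it was 1.38, 0.501, 1.27, 0.594, 0.481 and 0.838% (0.843% ± 0.394, SD, n = 6). The lowest culture library, replicate 4, lay above the highest recovered library, and the 3 recovered groups overlapped one another. Small-subunit members held 46.2% ± 2.02 of this ribosomal protein total in culture, 46.9% ± 2.04 and 47.2% ± 0.601 in blood on days 1 and 5, and 44.4% ± 1.97 in brain (SD). The balance of the subunits thus moved by little, while the total moved by a factor of 3.34 to 5.13 between culture and the recovered groups.

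**Figure D1:**
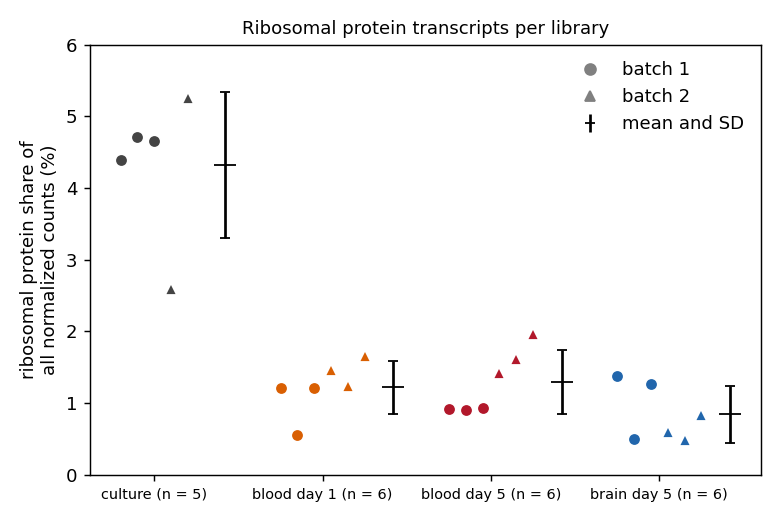
Share of all normalized counts (percent, y axis) that the 72 ribosomal protein genes took up in each library, by group on the x axis; circles are batch 1, triangles batch 2, and bars show the mean and SD. Culture libraries sit between 2.6% and 5.26%, and no recovered library is above 1.96%.

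Levels of different genes were compared per kilobase of one annotated transcript each (GENCODE M21). In culture Rps14, a small-subunit protein, had the highest mean, 99346 normalized counts per kilobase, followed by Rpl32 with 49244 and Rps18 with 46377; the median of 70 members was 13098 and the lowest was Rpl24 with 809. For Rps14, replicate 5 held 132941 normalized counts and the others 33470.3 to 49960.4. Rpl13, a large-subunit protein, was first in blood on both days (22759 and 20932 per kilobase), and Rps14 and Rpl13 led in brain (11595 and 10562). Reads from copies cannot always be placed: of the 72 members, 60 share at least one exact stretch of 150 bases, the length of a read, with another gene. For Rpl24 72.5% of all such stretches are shared. How such reads were counted is not given in the sources used here, so levels of members with many copies, Rpl5, Rps6, Rpl36a and Rpl24 among them, are uncertain.

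One day after transfer, nearly the whole family was lower in the cells recovered from blood than in culture. Of 71 members tested, 66 fell and 0 rose in limma's fit over all genes, against 14% of all 15268 genes tested that fell. At an unadjusted p under 0.05, 0 were higher, and edgeR and DESeq2 each called 1 higher, Rpl39l. This member had no read in culture, so it could not be called lower. The median log2 difference was -2.01, and the quartiles lay between -2.40 and -1.51. All 6 blood libraries were below all 5 culture libraries for 44 members; 7.39% of all genes showed this. By subunit, 28 of 30 small-subunit members fell with a median of -1.93, and 38 of 41 large-subunit members with a median of -2.14. The median was -2.34 in batch 1 and -1.40 in batch 2, and a fit of batch 2 alone called 25 members lower, against 5.8% of all genes. Batch 1 alone, which holds neither culture replicate 4 nor 5, called 68 lower, against 14.5% of all genes. With culture replicates 1 to 3, which are very close to one another, averaged into 1 library, and brain replicates 1 and 3 likewise, 54 members were called. The share of all genes called in that fit is not reported here. Platelet and erythroid genes held more of the blood RNA on day 1 than the ILC2-defining genes did. These levels therefore describe all the RNA of the blood libraries, whichever cells it came from.

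By fitted difference, 36 of 70 members lay at least 4-fold below culture, 8 of them at least 8-fold, and 7 lay less than 2-fold below it. Rpl39, a very short protein of the exit tunnel, fell most. Its normalized counts were 12847, 12670.4, 12238, 4554 and 26093 in culture replicates 1 to 5, and 565, 824, 538, 812, 503 and 627 in blood on day 1. The log2 difference was -4.23 ± 0.46 (SE; adjusted p = 1.8e-07), the culture mean was 21.2 times the blood mean, and no blood library reached the lowest culture library. Rpl23, a large-subunit protein that can also bind the p53 regulator MDM2, went from 26076, 29832, 28498, 8387 and 32279 in culture to 1759 to 2934 (median 2021) in blood, a log2 difference of -3.41 ± 0.37 (adjusted p = 1.7e-07). Rpl38, which is needed for the translation of some Hox messenger RNAs, went from 7061, 7796, 7604, 8224 and 15403 in culture to 591 to 1065 (median 952) in blood, a difference of -3.34 ± 0.25 (adjusted p = 7.9e-10). For both, every blood library was below every culture library, and culture replicate 4 was the lowest for Rpl23 while replicate 5 stood far above the rest for Rpl38. Rps15a and Rps24, both of the small subunit and the next in order, differed by -3.33 ± 0.44 and -3.32 ± 0.53 (adjusted p = 3.1e-06 and 4e-05). Culture held 24076, 28994, 26169, 4328 and 56293 of Rps24 and blood 1598 to 2545 (median 2171), without overlap.

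**Figure D2:**
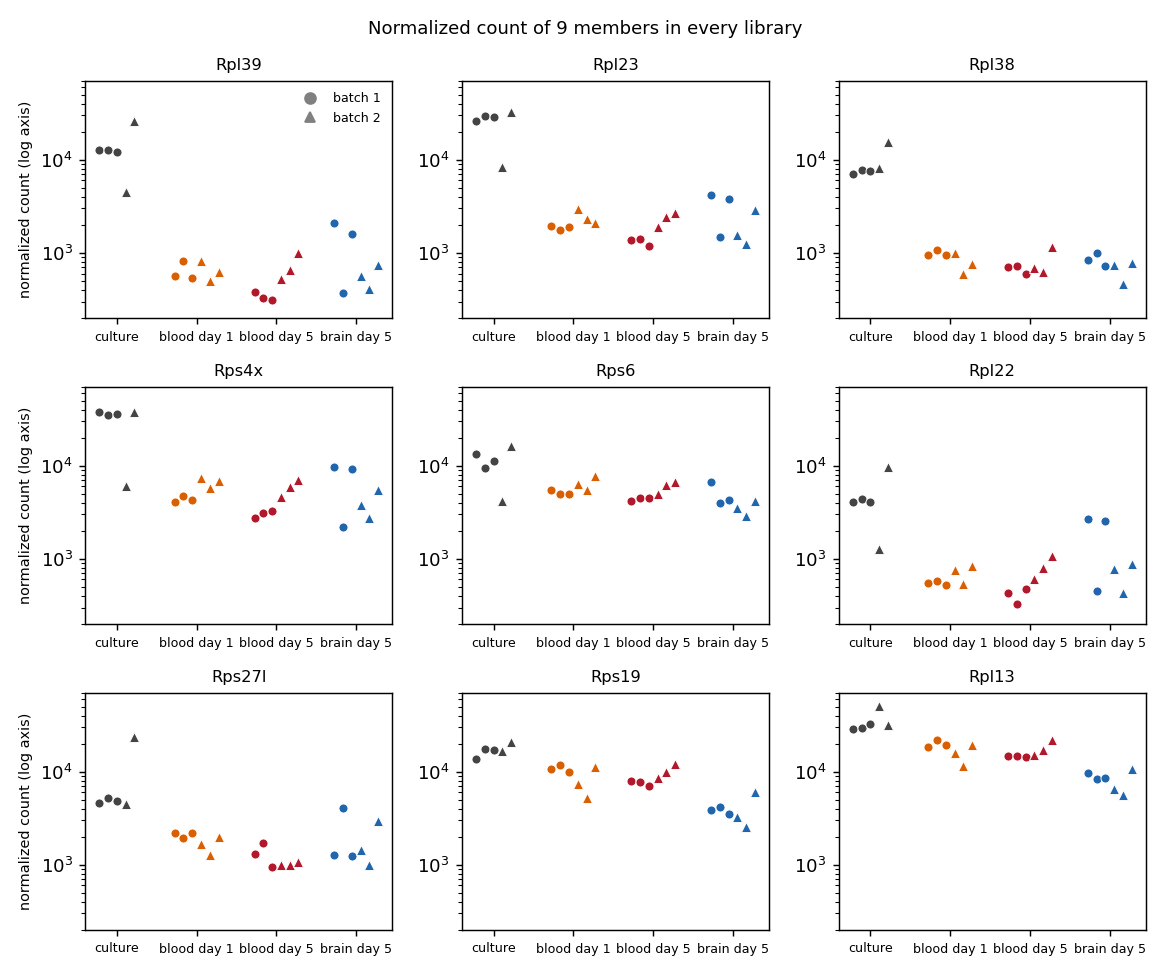
Normalized counts (y axis, log scale) of 9 members in every library, by group on the x axis; each point is a library, circles batch 1 and triangles batch 2. For Rpl39, Rpl23 and Rpl38 all recovered libraries lie below all culture libraries, for Rps4x and Rps6 culture replicate 4 lies within or below the range of blood, and Rpl13 is lower in brain than in blood.

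Among small-subunit members, Rps4x, encoded on the X chromosome, was apart from blood in every culture library but replicate 4. Its values were 37733, 35308, 35734, 6113 and 37502 in culture and 4082 to 7339 (median 5273) in blood on day 1, with replicate 4 inside the blood range. It fell by 2.25 ± 0.46 on the log2 scale (adjusted p = 0.00055), with differences of -3.06 in batch 1 and -1.19 in batch 2. Rps6, the substrate of the S6 kinases downstream of mTOR, was at 13240.1, 9450.3, 11302, 4204 and 16417 in culture and 4907 to 7672 (median 5466) in blood, where replicate 4 lay below every blood library. Its difference of -0.79 ± 0.28 (adjusted p = 0.035) passed the threshold in 27 of 40 alternative analyses, whose adjusted p ran from 1.8e-06 to 0.68. Rps19, a gene mutated in Diamond-Blackfan anaemia, fell by less than most members (-0.92 ± 0.24, adjusted p = 0.0053) but without overlap: culture libraries held 13731, 17288, 16993, 16625 and 20588, and blood 5179 to 11659.7 (median 10249.9). The order of fall therefore did not follow how cleanly the groups separated. Rpsa, also known as a laminin receptor, went from 18020 ± 4531 (SD, n = 5) to 6507 ± 2267 (SD, n = 6), with a difference of -1.49 ± 0.30 (adjusted p = 0.00045). Rps27a, which is made as a fusion with ubiquitin, had 1906, 2373, 2522, 585 and 12320.2 in culture, with replicate 5 far above the others, and 822, 164, 468, 773, 515 and 772 in blood. Its difference of -2.22 ± 0.60 had an adjusted p of 0.0069.

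The members of the stalk, the flexible arm that recruits elongation factors, fell as well. Rplp0, its base, was at 52572, 54903, 54624, 60272 and 25390.1 in culture and 15248 to 29675 (median 17480.3) in blood on day 1, with a difference of -1.33 ± 0.27 (adjusted p = 0.00061). Here culture replicate 5, not 4, was the lowest and the only one to overlap with blood. Rplp2, one of the acidic proteins bound to it, was at 8294, 10055, 9979.7, 5712 and 1735 in culture and 995 to 2147 (median 1228) in blood, again with replicate 5 inside the blood range. Its difference was -2.19 ± 0.41 (adjusted p = 0.00021), from -3.04 in batch 1 to -1.04 in batch 2. A fit of batch 2 alone did not call either. Rpl5 and Rpl11, which with the smallest ribosomal RNA can also hold MDM2, differed from culture by -1.89 ± 0.34 (adjusted p = 0.00016) and -1.26 ± 0.39 (adjusted p = 0.015). For Rpl11 the culture values were 7927, 9797, 9988, 2706 and 10592 and the blood values 2410.1 to 4670.3 (median 2961), so that replicate 4 lay within the blood range while the other culture libraries lay above it. Rpl22, a large-subunit protein needed in developing T cells, went from 4682 ± 3048 to 635 ± 135 (SD) with a difference of -2.64 ± 0.50 (adjusted p = 0.00025). Rpl36a, near the exit site for transfer RNA, went from 8118 ± 4699 to 811 ± 132 with -3.13 ± 0.38 (adjusted p = 9.2e-07). Rpl13a, which can leave the ribosome to silence inflammatory messages, went from 29249 ± 13524 to 5285 ± 2004 with -2.42 ± 0.43 (adjusted p = 0.00012). None of these 3 overlapped between the groups.

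The 5 tested members that did not pass included Rpl8, Rps29 and Rpl39l. Rpl8, of the large subunit, was at 16898, 18475, 19542, 7379 and 1809 in culture and 3355 to 9379 (median 4416) in blood, so that culture replicate 5 lay below every blood library (adjusted p = 0.16). Its difference was -2.30 in batch 1 and 0.82 in batch 2. Rps29, of the small subunit, had a difference of -0.39 ± 0.26 (adjusted p = 0.27).

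**Figure D3:**
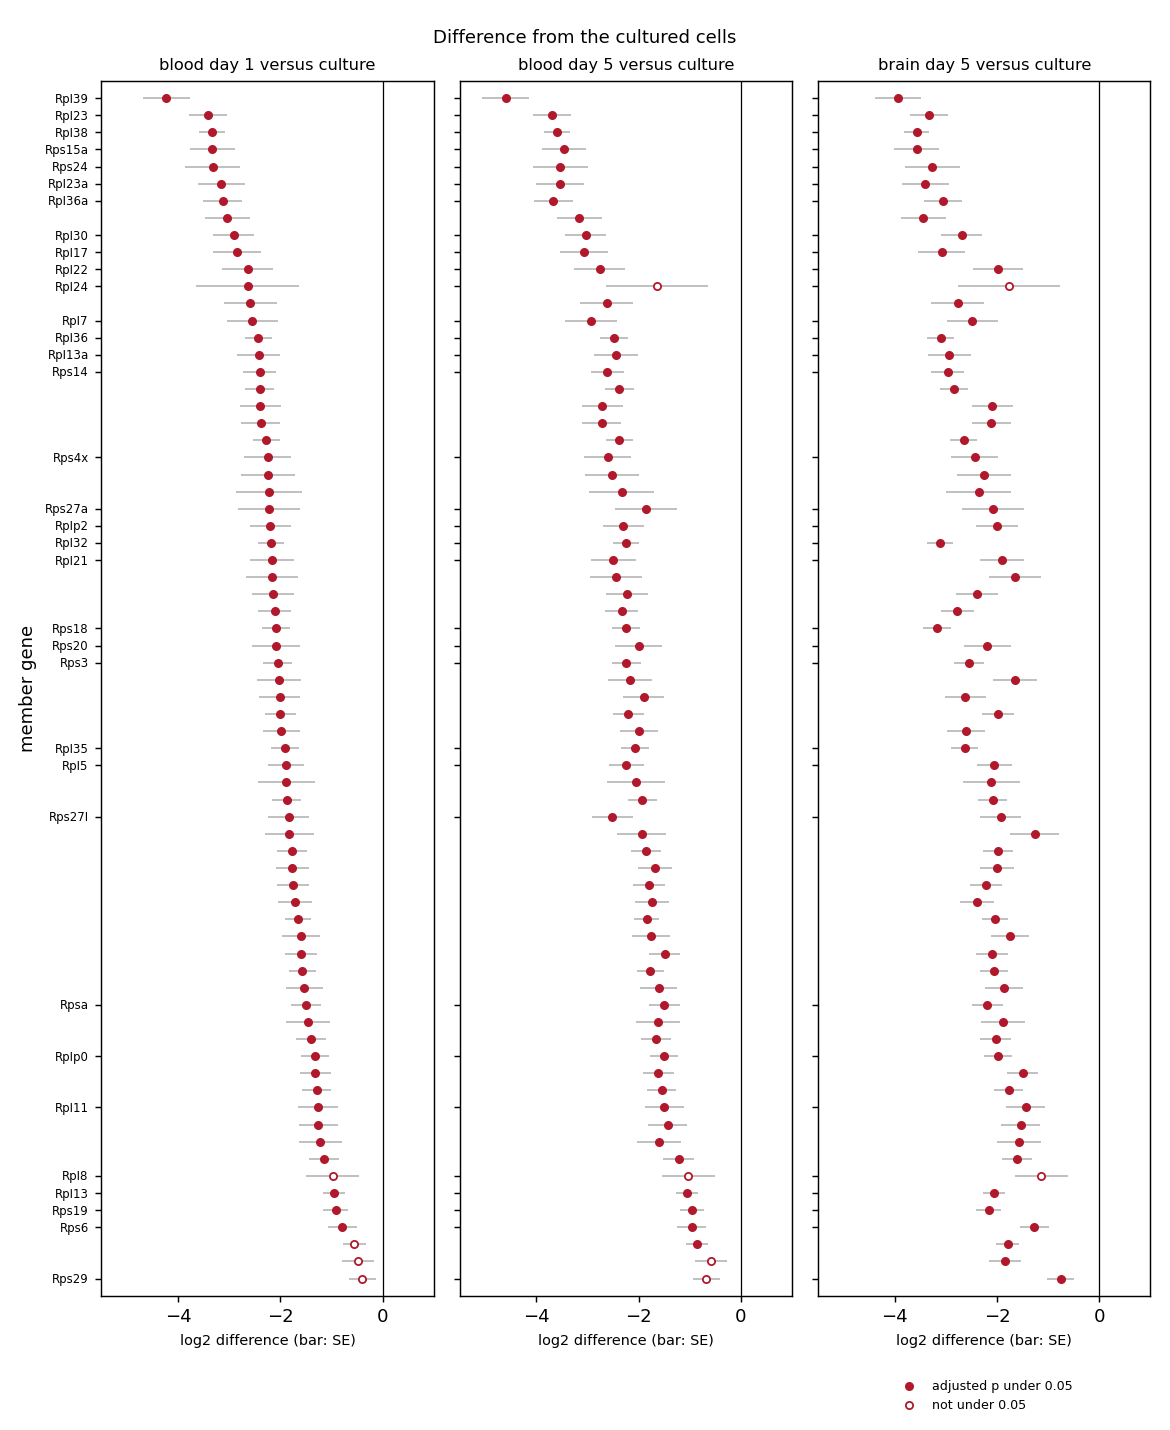
Log2 difference from culture (x axis, bar: SE) for 70 members (y axis, ordered by blood on day 1) in the 3 recovered groups; filled points have an adjusted p under 0.05. Every point lies left of 0, with Rpl39 farthest at -4.23 to -4.60 in blood; names are given for some members only.

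On day 5 the blood cells held ribosomal protein transcripts at levels below culture again. Of 71 members, 66 were called lower than in culture and 0 higher, where 11.4% of all genes were called lower; 0 were higher at an unadjusted p under 0.05, and the median log2 difference was -2.07. For 43 members all blood libraries were below all culture libraries, against 9.54% of all genes. The small-subunit median was -1.99 (29 of 30 fell) and the large-subunit median -2.23 (37 of 41 fell). The batches differed, with medians of -2.60 and -1.38, and batch 2 alone called 26 members lower, against 7.2% of all genes. Batch 1 alone called 67 lower, against 10.7% of all genes. With the close libraries averaged 60 were called, and the share of all genes is not reported here. The same 5 culture libraries serve both blood comparisons, which are therefore not independent. Platelet and erythroid genes on average held more of the blood RNA on day 5 than the ILC2-defining genes did. These levels too describe all the RNA of the blood libraries, whichever cells it came from.

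Rpl39 again had the largest fall, to 377, 331, 313, 529, 656 and 994 in blood on day 5 (-4.60 ± 0.46, adjusted p = 4.6e-08). Rpl23 came next, with 1389, 1399, 1186, 1899.9, 2450.3 and 2671 (-3.69 ± 0.37, adjusted p = 4.7e-08), and then Rpl36a, with 489.6, 324, 408, 624, 772 and 906 (-3.67 ± 0.38, adjusted p = 8.3e-08). In all 3, replicates 4 to 6 of blood day 5, which are batch 2, lay above replicates 1 to 3, and all 6 lay below every culture library. Rpl38 fell by 3.59 ± 0.25 on the log2 scale (adjusted p = 2.8e-10). Among small-subunit members, Rps19 had 7056 to 11942 (median 8235) and a difference of -0.96 ± 0.24 (adjusted p = 0.0035). Rps6 had 4178 to 6749.7 (median 4749.7) and a difference of -0.96 ± 0.28 (adjusted p = 0.011), and Rps4x had 2766 to 7036 (median 3977) and a difference of -2.60 ± 0.46 (adjusted p = 0.0001). Rpsa differed by -1.50 ± 0.30 (adjusted p = 0.00039), Rplp0 by -1.50 ± 0.27 (adjusted p = 0.00015) and Rplp2 by -2.30 ± 0.41 (adjusted p = 0.00011), each with culture replicate 5 inside the blood range. Rps27a fell by 1.85 ± 0.60 on the log2 scale, a call that 7 of 40 alternative analyses did not make (adjusted p = 0.022, and 1.4e-06 to 0.19 over them). Rpl5, Rpl11, Rpl13a and Rpl22 fell too, with differences of -2.24, -1.50, -2.45 and -2.77. The 5 that did not pass included Rpl24, Rpl8, Rps29 and Rpl39l, with Rpl24 at -1.64 ± 1.00 (adjusted p = 0.24).

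Between day 1 and day 5 in blood, no member was called different. Limma's fit called 0 of 71 lower and 0 higher, edgeR's quasi-likelihood test and DESeq2 on the recovered reads also called 0, and 0 were lower and 0 higher at an unadjusted p under 0.05. Of all genes 0.00655% were called lower and 0.0982% higher, so few genes of any kind passed here. The median log2 difference of the members was -0.16, with 64 of 71 below 0, and it was -0.43 in batch 1 and 0.10 in batch 2. Scaling all libraries to equal totals turned the median to 0.10. Rps27l had the lowest difference, -0.68 ± 0.38 (adjusted p = 0.67): its values were 2197, 1932, 2187, 1674, 1272 and 2010.2 on day 1 and 1313, 1732, 951, 999, 996 and 1076 on day 5, which overlap. Rpl39 went from 645 ± 140.1 to 534 ± 261 (SD, n = 6 each), Rps6 from 5807 ± 1049 to 5175 ± 1046 and Rplp0 from 19395 ± 5275 to 17336 ± 5056, all within their spread.

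In cells recovered from brain, the family was again lower than in culture almost without exception. Of 71 members, 68 fell and 1, Rpl39l, rose, against 11.7% of all genes that fell and 37.5% that rose. Rpl39l had no read in culture, so it could not be called lower. The members' median log2 difference was -2.10, while the median of all genes was 0.67; with TMM scaling in edgeR, 2746 of all genes were called lower and 4784 higher, in place of 1780 and 5733. All 30 small-subunit members fell (median -2.13), as did 38 of 41 large-subunit members (median -2.09); all brain libraries were below all culture libraries for 41 members, against 7.27% of all genes. The batches had medians of -2.23 and -2.18. Batch 1 alone called 68 members lower, against 9.51% of all genes, and batch 2 alone 53, against 8.43%. With the close libraries averaged 64 were called, and the share of all genes is not reported here. Choroid plexus, microglia and oligodendrocyte genes held far more of the brain RNA than the ILC2-defining genes did, so these levels describe all the RNA of the brain libraries, whichever cells it came from.

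Rpl39 fell most here too, to 2107, 369.8, 1604, 570.0, 405 and 749.9 (-3.94 ± 0.46, adjusted p = 1.3e-07). Rpl38 fell to 833, 990.1, 728, 742, 464 and 784 (-3.57 ± 0.25, adjusted p = 4.2e-11). The small-subunit member Rps15a went from 20591, 22296, 21343, 6207 and 36764 in culture to 3796, 760.1, 3073, 1245, 779 and 1735 in brain (-3.57 ± 0.44, adjusted p = 3.3e-07). None of the 3 overlapped with culture. For Rpl39 and Rps15a, brain replicates 1 and 3 lay well above the other brain libraries, and for Rpl38 they did not. Rps4x had 9666, 2176, 9325, 3826, 2723 and 5461 in brain, with replicates 1 and 3 again highest, and a difference of -2.43 ± 0.46 (adjusted p = 9.4e-05). Replicates 1 and 3 were the 2 highest brain libraries for 42 of the 70 members, and replicate 5 was the lowest for 48. Rps6 was at 2852 to 6701 (median 4088) with a difference of -1.27 ± 0.28 (adjusted p = 0.00058). Rps19 was at 2512 to 6116 (median 3711) with -2.16 ± 0.24 (adjusted p = 7e-08) and Rpsa at 2543 to 5315 (median 4268) with -2.19 ± 0.30 (adjusted p = 1.4e-06). Rps19 and Rpsa in brain stayed below all culture libraries, whereas for Rps6 culture replicate 4 lay among the brain libraries. Of the stalk, Rplp0 differed by -1.98 ± 0.27 (adjusted p = 1.7e-06) and Rplp2 by -1.996 ± 0.41 (adjusted p = 0.00023). Rpl23, Rpl36a and Rpl13a fell, with differences of -3.33, -3.06 and -2.93, and so did Rpl5, Rpl22 and Rpl11, with -2.05, -1.98 and -1.44; for these last 3 culture replicate 4 lay within the brain range. Rps27a differed by -2.08 ± 0.60 (adjusted p = 0.0061). Besides Rpl39l, only Rpl24 (-1.77 ± 1.00, adjusted p = 0.15) and Rpl8 (-1.13 ± 0.52, adjusted p = 0.076) were not called lower.

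**Figure D4:**
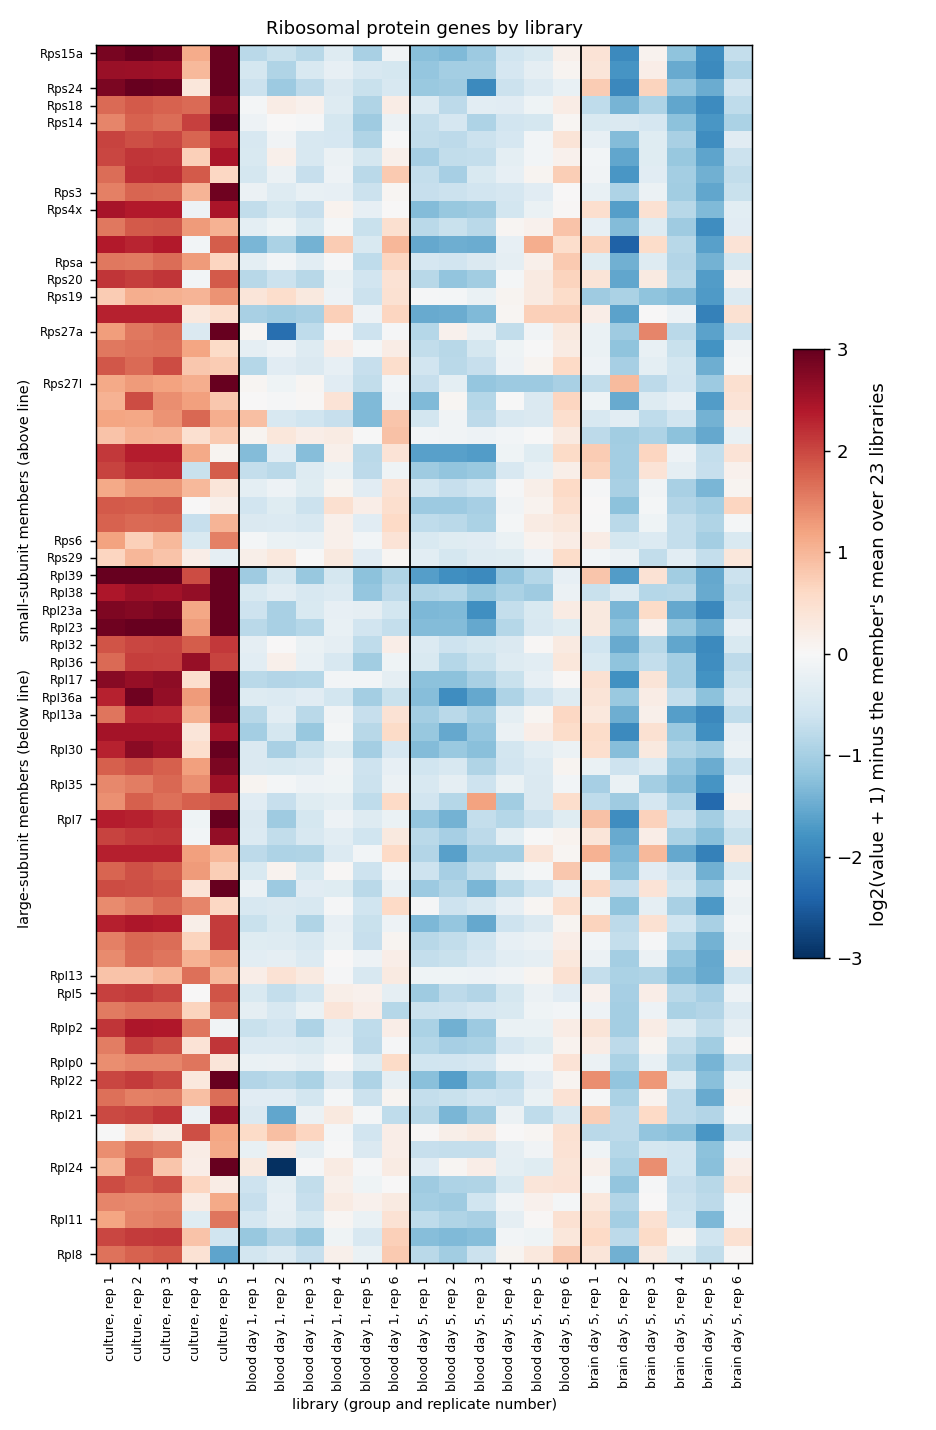
Log2(value + 1) of 70 members (rows, small subunit above the line and large subunit below it, each ordered by the difference between brain and culture) in the 23 libraries (columns), minus the member's mean over all libraries, with names for some members only; red is above and blue below that mean. Culture columns are red in nearly every row, culture replicate 4 is paler than replicates 1 to 3, and brain replicates 1 and 3 are less blue than the other brain columns in many rows.

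Several members and neighbours of the family come as paralog pairs, and these did not all move together. Rpl39l, a relative of Rpl39 best known from testis, had no read in any of the 5 culture libraries and 110.2, 0, 1.72, 7.65, 3.2 and 164 normalized counts in brain. The brain mean was at least 11.9-fold higher than the culture mean that 3 reads per library would give (4.02 normalized counts). It rests on brain replicates 1 and 6, since the other 4 brain libraries held from 0 to 7.65. The adjusted p was 0.036 in limma's fit, 11 of 39 alternative analyses did not call it, and without brain replicate 1 it was 0.11. Rpl39l met the filter only through recovered libraries, so its test against culture could come out as a rise but not as a fall. In blood Rpl39l held 65.4, 0, 1.17, 11.8, 27.5 and 0 on day 1 and 0, 0, 0, 25.3, 20.2 and 9.75 on day 5, with adjusted p-values of 0.15 and 0.28 against culture. Rpl3l, the relative of Rpl3 in striated muscle, had 2 reads over the 5 culture libraries, 66 and 109 over the blood libraries of days 1 and 5, and 3 over those of brain, below the level set for a test. Rps27l, a p53-inducible relative of Rps27, was at 4627, 5159.9, 4891, 4472 and 23732 in culture, with replicate 5 far above the rest. It fell in all 3 recovered groups, with differences of -1.83, -2.51 and -1.93 in blood day 1, blood day 5 and brain (adjusted p = 0.0011, 3.4e-05 and 0.0003). The differences in batch 1, which does not hold replicate 5, were -1.22, -1.92 and -1.39. Rpl22l1, the relative of Rpl22 and outside the name rule, fell beside it, with differences of -3.47 ± 0.35, -3.67 ± 0.35 and -3.32 ± 0.35 in the same 3 comparisons (adjusted p of at most 7.9e-08). Rpl36al, the relative of Rpl36a, fell by less than it, with -0.85 ± 0.30, -1.42 ± 0.30 and -1.69 ± 0.30 (adjusted p = 0.033, 0.00072 and 4.5e-05); the difference between the pair was not tested. Rpl7l1, a relative of Rpl7, was not called in any of the 3, with differences from 0.06 to 0.62.

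Brain and blood could be told apart for few members. Against blood on day 5, 6 of 71 members were lower in brain and 0 higher, a smaller share than the 14.3% of all genes called lower, with a median log2 difference of -0.14. For 4 members brain and blood did not overlap, against 10.5% of all genes. Against blood on day 1, 10 were lower and 0 higher, close to the 14.1% of all genes called lower, with a median of -0.24. For 3 members the groups did not overlap, against 7.07% of all genes. The count against day 1 was 6 without brain replicate 4 and 6 without brain replicate 5. At an unadjusted p under 0.05, 0 and 0 members were higher in brain; edgeR called 21 and 27 lower and 0 higher, where 18.4% and 20.1% of all genes were lower, and DESeq2 called 8 and 10 lower and 1 and 0 higher, where 13.6% and 14.5% were lower. In edgeR the share of members called lower was thus above that of all genes, unlike in limma and DESeq2. The batches went opposite ways: the median against blood day 5 was 0.53 in batch 1 and -0.76 in batch 2, and against day 1 0.13 and -0.71. The brain libraries of batch 1 did not agree, however. The median of the member values was 3591 and 3171 in brain replicates 1 and 3 but 1332 in brain replicate 2. In the blood day 5 libraries of batch 1 it was 1621 to 1658, so brain replicate 2 lay below them. Fitted alone, batch 1 called 4 members lower and 13 higher in brain than in blood on day 5, where 11.2% of all genes were lower and 26.2% higher. Batch 2 called 10 lower and 0 higher, where 10% of all genes were lower. Against blood on day 1, batch 1 alone called 7 lower and 1 higher, where 11% of all genes were lower, and batch 2 alone called 4 lower, where 9.58% were.

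Rps19, Rpl13, Rps18 and Rpl32 were among the members called lower in brain than in blood on either day. Rpl13 had 9742, 8335, 8568, 6524, 5647 and 10612 normalized counts in brain and 14621, 14672, 14457, 14982, 17174 and 22053 in blood on day 5. No brain library of Rpl13 reached any blood library of either day. Its differences were -1.003 ± 0.21 from day 5 (adjusted p = 0.0003) and -1.11 ± 0.21 from day 1 (adjusted p = 9.4e-05). Rps19 had 3918, 4191, 3505, 3288, 2512 and 6116 in brain, below all blood libraries of day 5 but overlapping with those of day 1, which reached down to 5179. It differed by -1.20 ± 0.23 and -1.24 ± 0.23 from days 5 and 1 (adjusted p = 0.00012 and 8.1e-05). Both members were lower in brain within either batch. Rps18 and Rpl32, whose brain and blood ranges overlap slightly, had differences of -0.92 and -0.87 from day 5. Rpl35 and Rpl36 passed against day 1 and not against day 5 (-0.72 ± 0.26 and -0.67 ± 0.25, adjusted p = 0.022 and 0.031). The laminin receptor Rpsa passed against day 1 (-0.69 ± 0.28, adjusted p = 0.046) but not against day 5 (-0.69 ± 0.28, adjusted p = 0.0503); 17 of 40 alternatives lost the first call and 18 of 40 made the second. Rplp0 was likewise called against day 1 (-0.65 ± 0.26, adjusted p = 0.039) and not against day 5 (-0.48 ± 0.26, adjusted p = 0.13), and 9 of 40 alternatives lost the first. Rpl39, Rpl22 and Rps27l had higher values in brain than in blood on day 5, with differences of 0.67 ± 0.43, 0.78 ± 0.47 and 0.59 ± 0.38, but none passed (adjusted p = 0.22, 0.19 and 0.22). For Rpl39 and Rpl22 the batches differed in sign.

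Base composition went with how members differed between libraries. The transcripts of 70 members, 1 annotated transcript each, hold 41.3% to 60.8% G and C. Some of these are long: that of Rps20, with the lowest GC, has 3706 bases and that of Rps15a 5179. The median over the 72 members is 834. Whether these forms are the ones present in the libraries was not tested. Across these members the log2 difference between brain and blood on day 5 correlated with GC at r = -0.46. The difference from culture did so at r = 0.38 for blood on day 1 and r = 0.18 for brain. All members share the same libraries, and the comparisons share culture and blood libraries, so these values are descriptions. The 23 members with the lowest GC (41.3% to 48.9%) had a median difference between brain and blood on day 5 of -0.01, and none was called. Of the 23 with the highest (53.1% to 60.8%) 5 were called lower, with a median of -0.46. Of all genes, 14.3% were called lower in this comparison. In batches 1 and 2 the medians were 0.77 and -0.65 for the lowest GC, and 0.08 and -0.997 for the highest. Both sets thus had a median below 0 in batch 2 only. Rps19 and Rpl13 have 59.6% and 57.1%, and Rpl39 has 48.7%. In single libraries the deviation of members from their mean over all libraries correlated with GC at -0.43, -0.42 and -0.36 in culture replicates 1 to 3, at 0.44 in replicate 4 and -0.46 in replicate 5. In brain it did so at -0.43 and -0.40 in replicates 1 and 3 against 0.13 in replicate 2. When values were adjusted for GC over all genes, an alternative chosen after seeing the data, 69, 69 and 70 members were called against culture in blood day 1, blood day 5 and brain, where 18.6%, 19.2% and 35.8% of all genes were called lower. After the same adjustment 40 and 53 members were lower in brain than in blood on days 5 and 1, where 30.5% and 34.2% of all genes were. The adjustment also moved the median log2 difference of all genes by -0.84 and -1.07 in the last pair of comparisons.

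**Figure D5:**
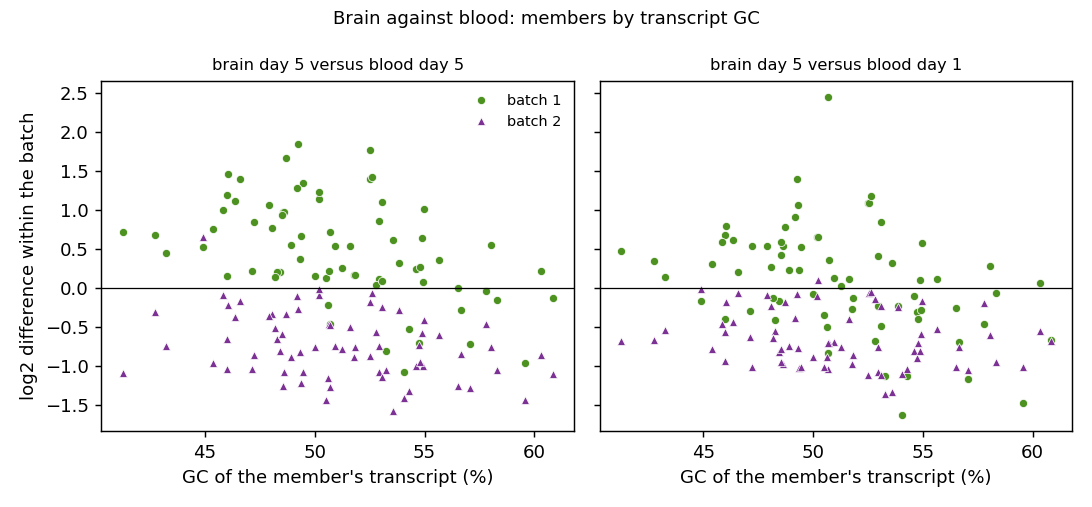
Log2 difference between brain and blood within each batch (y axis) against the GC content of the member's transcript (x axis, percent) for 70 members; the left panel uses blood on day 5 and the right panel blood on day 1, circles are batch 1 and triangles batch 2. Batch 2 points lie below 0 for 69 of 70 members in both panels, and batch 1 points are mostly above 0 on the left except at high GC.

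Members with few exact copies of their read-length stretches in other annotated transcripts fell in similar numbers. Copies with mismatches, and copies outside annotated transcripts, were not counted. For 23 members fewer than 10% of the read-length stretches are found in another gene, and 18, 19 and 20 of the 22 tested fell in blood day 1, blood day 5 and brain against culture, with medians of -2.12, -2.27 and -2.02. For the 17 members with over 50% shared, 17, 16 and 16 fell, with medians of -2.22, -2.24 and -2.26. Rpl39, Rpl22, Rps3 and Rpl32 have no shared stretch at all, while Rpl5 has 88.2% shared, Rps6 82.4% and Rpl36a 81.1%. Across 70 members the differences of batch 1 and batch 2 correlated at r = 0.28 for blood day 1, 0.32 for blood day 5 and 0.49 for brain against culture. Nearly all were below 0 in either batch: 69, 70 and 70 of 70 in batch 1, and 67, 65 and 69 in batch 2.

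Other genes that make ribosomes or work with them were read from lists of gene names, in the order blood day 1, blood day 5 and brain, each against culture. Of all genes tested, 14%, 11.4% and 11.7% fell and 18.1%, 19.6% and 37.5% rose in these 3 comparisons. Of 6 further ribosomal proteins with other names, 5, 5 and 5 fell, with medians of -1.57, -1.58 and -2.23. Among them was Rack1, a small-subunit protein that anchors kinases, with differences of -1.37 ± 0.34, -1.47 ± 0.34 and -2.05 ± 0.34 (adjusted p = 0.0031, 0.0016 and 1.9e-05). Of 16 elongation factors and other products of TOP messages, 10, 12 and 14 fell, with medians of -1.53, -1.50 and -1.48. Npm1, a nucleolar chaperone, had means of 20320.5 in culture and 2887, 2271 and 2572 in the recovered groups. Of 29 initiation factors, 12, 11 and 12 fell and 1, 0 and 1 rose (medians -0.65, -0.77 and -0.70). Of 69 ribosome biogenesis genes 16, 9 and 26 fell and 1, 2 and 0 rose (medians -0.35, -0.30 and -0.90), which in blood on day 5 was near the share of all genes. Ncl, the nucleolar protein nucleolin, fell to 3089 and 2910.2 in blood day 5 and brain from 12800.5 in culture, and Nop58, a core protein of small nucleolar RNA particles, had differences of -2.57, -2.03 and -2.51 in the 3 comparisons. The differences between these lists and the ribosomal proteins were not tested.

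Of 32 regulators of ribosome production, 8, 7 and 8 fell and 8, 7 and 4 rose, with medians of 0.02, 0.03 and 0.12. The counts that rose were near the share of all genes in blood and below it in brain. The transcription factor Mycn had a mean of 4199 in culture and 18.8, 19.1 and 71.6 in blood day 1, blood day 5 and brain. Its log2 differences were -9.40 ± 1.23, -8.56 ± 1.23 and -6.73 ± 1.23 (adjusted p of at most 6.7e-05). Myc, which drives ribosomal protein genes in many growing cells, went the other way in blood, by 3.64 ± 1.07 and 4.01 ± 1.07 (adjusted p = 0.012 and 0.0057), with 1.59 and 6.56 in batches 1 and 2 on day 1. In brain its difference was 2.57 ± 1.07 (adjusted p = 0.052). Sesn1, an inhibitor of mTOR signalling, rose in all 3 groups, from a mean of 219 to 2669.9, 3545 and 2384 (adjusted p of at most 1.2e-06). Mtor itself had differences of 0.18 ± 0.53, 0.28 ± 0.53 and 1.04 ± 0.53 and Larp1, the protein that binds TOP tracts, of -1.29 ± 0.56, -0.62 ± 0.56 and -0.60 ± 0.56, and neither passed (adjusted p of at least 0.11 and 0.08).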

How the data were processed

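RNA sequencing of 23 libraries labelled as ILC2s was re-analysed from 1 table of normalized counts. Per the labels' protocols, messenger RNA was selected by poly-A, primed with random hexamers and read as 150-base pairs. The submitters' processing notes name fastp, HISAT2 2.0.5 and the build mm10; the counting tool, annotation, strand setting and treatment of multiply mapped reads are, in the sources used here, not given. The deposited values are signal values, which the authors made by dividing each library's read counts by a size factor: 100% of the values are whole multiples of 1 read within 0.1 read, and the reads so recovered come to 11606756 to 58059558 per library. No column lacked a sample (0 columns).

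Of 19945 genes, the 15268 whose value reached 10 in 5 or more libraries were kept, transformed as log2(value + 1) and fitted together over all 23 libraries with group and batch in limma 3.58.1 (R 4.3.3), with Benjamini-Hochberg adjustment over all genes and a threshold of 0.05. Differences are on the log2(value + 1) scale, which understates the change of low genes, and errors are limma's standard errors. Limma's script was tested on simulated data. edgeR 4.0.16 and DESeq2 1.42.0 were run on the recovered reads as alternatives, beside other pseudocounts, filters, scalings, weights, batches and libraries left out. Transcript length, GC and copies of 150 bases came from GENCODE M21 (19931 genes matched) and promoters from RefSeq (GRCm38.p6), where Rpl8, Rpl7, Rps20, Rpl21, Rps14, Rps29, Rpl17, Rpl30, Rps27a, Rpl32, Rpl23a and Rpl36 were among the members without an entry. For genes without reads a floor of 3 reads per library was used, which covers counting error only.

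Members and lists were chosen with earlier results of these data known. Members were named by a rule: the 3 largest falls and rises per comparison among called members with a mean of at least 100 and 1 sign in both batches, members called against the median's sign, members that failed the filter, and a set fixed by role. Rpl8, Rpl24, Rps29, Rps14, Rps15a, Rps24, Rpl13, Rpl32, Rps18, Rpl35 and Rpl36, where named beyond it, were added after their values were seen. Some members enter the counts but are not reported here by name. Same-numbered libraries deviated together with r from -0.104 to 0.189 (median 0.0141, 33 pairs), so the numbers were not taken as pairs.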

Additional observations from a re-analysis of the deposited data

Results flagged for a closer look

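In 12 of 80 groups of values tested over 19 named members and the family share, 1 library stood apart from the rest of its group by more than Dixon's 95% limit. Chance gives about 1 in 20 for independent groups of like libraries. The 80 groups share the same 23 libraries, and culture joins 3 close libraries of batch 1 with 2 of batch 2. The 12 are therefore a description and cannot be set against that rate. In culture replicate 4, Rpl23 (8387 normalized counts), Rpl5 (4667) and Rps4x (6113) were far below the other culture libraries, while Rpl13 (50461) was far above them. In culture replicate 5, Rpl38 (15403), Rps27a (12320.2) and Rps27l (23732) were far above and Rplp0 (25390.1) far below. Blood replicate 6 was highest for Rplp0 (29675) on day 1, and for Rpl13 (22053) and Rpl38 (1159.6) on day 5. Brain replicate 3 was highest for Rps27a (2198). Of the 12, 8 fell on the 2 culture libraries of batch 2.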

How the results depend on the processing

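For the 6 counts of called members, 223 of 240 alternatives stayed within 1.5 times the count reported. For 107 single results, 4125 of 4274 alternatives kept the call. A result called in neither fit counted as kept even where its sign changed. Rpl22 in brain against blood day 1, for example, was never called and ran from -0.35 to 1.39. Leaving out each library in turn gave 62 to 67 members for blood day 1, 65 to 67 for blood day 5 and 67 to 70 for brain against culture, 0 to 0 between the blood days, 6 to 9 for brain against blood day 5 and 6 to 13 against day 1 (6 without brain replicate 4 or 5). Batch 2 alone called 25 and 26 members in blood against culture on days 1 and 5, 10 for brain against blood day 5 and 4 against day 1; batch 1 alone called 17 for brain against blood day 5, of which 13 were higher, which reversed the direction. Brain against blood day 5 also moved to 17 with equal library totals, where 2978 of all 15268 genes were lower in place of 2183. In edgeR it moved to 21, where 18.4% of all genes were lower, and against day 1 to 27, where 20.1% were. Quality weights gave 12 and 18 members for brain against blood days 5 and 1, and 1 between the blood days. The shares of all genes with quality weights are not reported here. Adjusting for GC, chosen after seeing the data, gave 40 and 53 members for brain against blood days 5 and 1, with or without a replicate block, and turned Rpl38 against day 5 to -0.86 and Rplp2, Rpl23 and Rpl36a against day 1 to -0.86, -0.88 and -0.89; with the block as well, Rpl38 was at -0.86, Rplp2 at -0.86 and Rpl23 at -0.88. The cause of these changes was not tested. The replicate block alone gave 67, 67 and 70 members against culture in blood day 1, blood day 5 and brain, 0 between the blood days, and 9 and 11 for brain against blood days 5 and 1. The shares of all genes with the replicate block, and the directions of its calls, are not reported here. Scaling moved the median log2 difference of all genes, by -0.45 in edgeR for brain against culture, -0.33 and -0.57 for brain against blood days 5 and 1, and by -1.28, -0.84 and -1.07 when adjusted for GC; for brain against blood day 5, edgeR called 2816 genes lower and 4141 higher in place of 2183 and 5123. Depth limits Rpl39l and Rpl3l, which had few or no reads in culture, and Rpl24 had 0 reads in blood day 1 replicate 2 and 38 in brain replicate 2.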

Other observations

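The proteins of the mitochondrial ribosome, which makes the few proteins encoded in mitochondrial DNA, were lower in smaller numbers than the cytosolic set. Of 72 tested, 10, 19 and 17 fell in blood day 1, blood day 5 and brain against culture in limma's fit, where 14%, 11.4% and 11.7% of all genes did, so that the count in blood on day 1 was at the share of all genes. Their median log2 differences were -0.16, -0.48 and -0.30. Mrps6, of the small mitochondrial subunit, had a mean of 1802 in culture, 318 and 235 in blood on days 1 and 5 and 1747 in brain, with differences of -2.41 ± 0.37, -2.77 ± 0.37 and 0.03 ± 0.37 (adjusted p = 2.3e-05, 3.6e-06 and 0.96). Mrpl33, of the large one, went from 7620.2 in culture to 1070.3 in brain (-2.27 ± 0.48, adjusted p = 0.00036). The difference between the sets was not tested.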
